A study of Mus musculus with 28 samples.

Results

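The miR-30 family was followed through 28 small RNA libraries from the left ventricle of neonatal and juvenile mice. Its 10 mature miRNAs were picked by name, out of 1485 mature names counted in the series. From the 5′ arm of the hairpins came 5 members, mmu-miR-30a-5p, mmu-miR-30b-5p, mmu-miR-30c-5p, mmu-miR-30d-5p and mmu-miR-30e-5p, and from the 3′ arm 5, mmu-miR-30a-3p, mmu-miR-30c-1-3p, mmu-miR-30c-2-3p, mmu-miR-30d-3p and mmu-miR-30e-3p. The prefix mmu, for mouse, is left out from here on. All mice were Hsd:ICR(CD-1), an outbred stock with no stated genetic change, and tissue came from the remote zone, the part of the wall away from the infarct. Myocardial infarction (MI) was made by ligation of the left anterior descending coronary artery, and controls had a sham operation. The operation was done on postnatal day 1 (P1) or 7 (P7), and hearts were taken 3 or 21 days later. At the 3-day follow-up the groups were sham P1 and MI P1, aged 4 days, and sham P7 and MI P7, aged 10 days, with 4 libraries each. At the 21-day follow-up the same operations gave mice aged 22 days (P1) and 28 days (P7), with 3 libraries each.

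A miRNA is cut from a hairpin precursor, which can release one mature strand from its 5′ arm and one from its 3′ arm. The mature strand guides an Argonaute protein to messenger RNAs, and the seed, the short stretch near its 5′ end, sets most of the pairing. The miR-30 family is abundant in heart muscle cells, and miR-30 5p strands are known to lower connective tissue growth factor (Ctgf), a matrix-promoting protein, in cardiac cells. The family is encoded by 3 pairs of hairpins.

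The mature strands show which members can share targets and which can share reads. RefSeq entries (build GRCm38.p6) matched 7 of the 10 members, printed 5′ to 3′ with the seed, bases 2 to 8, in capitals.
miR-30a-5p: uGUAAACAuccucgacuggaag
miR-30c-5p: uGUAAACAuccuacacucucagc
miR-30e-5p: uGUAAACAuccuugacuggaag
miR-30a-3p: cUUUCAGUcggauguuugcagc
miR-30e-3p: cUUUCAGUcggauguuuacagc
miR-30c-1-3p: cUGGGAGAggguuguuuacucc
miR-30c-2-3p: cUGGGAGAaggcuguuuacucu
The 3 5p strands shared the seed GUAAACA, and miR-30a-5p and miR-30c-5p were identical over their first 12 bases. The 3p strands fell into 2 seed groups, UUUCAGU for miR-30a-3p and miR-30e-3p and UGGGAGA for miR-30c-1-3p and miR-30c-2-3p. Counted from 1 at the 5′ end, miR-30a-5p differed from miR-30e-5p by C13U alone, and miR-30a-3p differed from miR-30e-3p by G18A alone. How the counting treated reads that fit both names is not given in the sources used here, so the split between 30a and 30e is uncertain. miR-30c-1-3p and miR-30c-2-3p differed by G9A, U12C and C22U.

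The hairpins lie in the genome (GRCm38.p6) as pairs of neighbours. Mir30a (chr1:23272269-23272339) and Mir30c-2 (chr1:23291701-23291784) are on the plus strand of chromosome 1, 19361 bases apart. In the GENCODE annotation no other gene overlaps Mir30a, and Mir30c-2 lies in an exon of the long noncoding RNA gene Gm27028. Mir30e (chr4:120772606-120772697) and Mir30c-1 (chr4:120769534-120769622) are on the minus strand of chromosome 4, 2983 bases apart, and both lie within the gene Nfyc, outside its annotated exons, where Nfyc encodes a subunit of the transcription factor NF-Y. At the Mir30e position the annotation also lists Mir30f, a miRNA gene on the plus strand. Mir30b (chr15:68337415-68337510) and Mir30d (chr15:68341208-68341289) are on chromosome 15. The miR-30c hairpins are printed whole, with both mature arms in capitals, because miR-30c-5p comes from both and only the 3p strand tells them apart.
Mir30c-1: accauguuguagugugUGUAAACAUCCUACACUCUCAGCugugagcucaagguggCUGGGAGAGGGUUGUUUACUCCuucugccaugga
Mir30c-2: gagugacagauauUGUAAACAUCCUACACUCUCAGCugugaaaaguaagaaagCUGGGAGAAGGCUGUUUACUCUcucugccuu
The counts of miR-30c-5p under the 2 hairpins differed by at most 6 reads in any of the 28 libraries, so they give 1 value for both.

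Levels are CPM, counts per M of a library's miRNA counts (M, 1e6), scaled with TMM, a normalization that takes most miRNAs as unchanged between libraries. The 3-day and 21-day libraries were made with different kits (Qiagen QIAseq and Illumina TruSeq Small RNA) and are never compared with each other. Library depth ranged from 1.29 to 13.0 M deposited counts among the 3-day hearts and from 18.2 to 26.9 M among the 21-day hearts. At 3 days the sham P1 libraries fell apart by the number at the start of their titles: replicates 1 and 2 carry code 1078 and replicates 3 and 4 carry code 1103, whose meaning is not given. At 21 days each group has a code of its own, so code and group cannot be told apart. Whether each library is a separate mouse is not said in the labels, so a p-value reflects library-to-library spread, which may be technical. Calls are at an adjusted p under 0.05 from edgeR over all tested miRNAs, 446 at 3 days and 598 at 21 days, and all 10 members were tested at both. As a check of the tissue, the 5 cardiac muscle miRNAs listed (miR-1a-3p, miR-133a-3p, miR-208a-3p, miR-208b-3p and miR-499-5p) summed to 88820 to 324311 CPM at 3 days and 55970 to 157386 CPM at 21 days. In bulk tissue, fewer cells of a type and less RNA per cell cannot be told apart.

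The family made up 3.99% ± 0.901 (SD, n = 16) of the miRNA counts at 3 days and 11.8% ± 1.61 (SD, n = 12) at 21 days. Because the kits differ, these shares cannot be read as a change with time. The 5p strands held 94.3% to 98.1% of the family's counts in every library. At 3 days miR-30d-5p was the most counted 5p strand in every library, with 40.8% to 88.0% of the 5p counts. The other 4 overlapped in their shares, at 5.78% to 15.4% for miR-30a-5p, 2.35% to 24.1% for miR-30c-5p, 2.52% to 14.5% for miR-30e-5p and 0.331% to 6.10% for miR-30b-5p. At 21 days miR-30a-5p came first with 31.4% to 52.1%, then miR-30e-5p, which held at least 23.2% and lay below miR-30a-5p in every library. miR-30d-5p (12.1% to 18.2%) and miR-30c-5p (8.45% to 15.9%) overlapped, and miR-30b-5p was lowest at 3.33% to 5.91%. Of the 3p counts at 21 days, miR-30e-3p held 46.3% to 65.6% and miR-30a-3p 23.9% to 44.6%, while the other 3 held under 6% each. These shares order counts and not molecules, since library kits capture strands with unequal efficiency.

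At 21 days 7 of the 10 members were lower after MI at P7 than after sham at P7 and 0 were higher, where 8.86% of all tested miRNAs passed lower and 13.2% higher. The other 3, among them the most counted member, miR-30a-5p, did not pass. The share of all miRNA counts held by the family overlapped, at 11.6% to 14.3% in sham P7 and 8.04% to 13.3% in MI P7. The median log2 fold change of the members was -0.70, beside 0.03 over all tested miRNAs. Among the members by hairpin, 3 of 3 strands made only from chromosome 4 fell, as did 3 of 3 from chromosome 15. miR-30c-5p from both chromosomes 1 and 4 fell, and 0 of 3 strands made only from chromosome 1 passed. miR-30b-3p, from chromosome 15 but outside the 10 members, did not pass (-0.31 ± 0.29, edgeR, adjusted p = 0.441). The grouping by hairpin was chosen after the values were seen, and the difference between hairpin pairs was not tested.

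Among the members, miR-30c-1-3p from chromosome 4 fell most. It was at 98.0, 107 and 120 CPM in the sham P7 libraries and at 42.1, 78.4 and 24.3 CPM in MI P7, replicates 1 to 3. All MI libraries lay below all sham libraries, and replicate 3 was lowest. It fell by 1.17 ± 0.31 (SE) on the log2 scale (adjusted p = 0.0175), 2.25-fold lower. miR-30e-3p was at 2716, 1925 and 2540 CPM in sham and at 983, 1785 and 985 CPM in MI, with replicate 2 of the MI group close under the lowest sham library. It fell by 0.94 ± 0.23 (adjusted p = 0.0141). miR-30e-5p, the strand that pairs with it in the hairpin, was at 47860, 33649 and 37730 CPM in sham and at 13975, 30127 and 25745 CPM in MI. The groups again did not overlap, and the fall was 0.77 ± 0.25 (adjusted p = 0.0434).

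On chromosome 15, miR-30d-3p was at 192, 164 and 185 CPM in sham P7 and at 110, 125 and 84.4 CPM in MI P7. No MI library reached the sham range, and miR-30d-3p fell by 0.76 ± 0.18 (adjusted p = 0.0124). Its 5p partner, miR-30d-5p, was at 23433, 19880 and 19736 CPM in sham and at 9983, 17518 and 13003 CPM in MI, and fell by 0.64 ± 0.21 (adjusted p = 0.0405). miR-30b-5p was at 7662, 5468 and 6170 CPM in sham and at 3448, 5478 and 3570 CPM in MI. Replicate 2 of the MI group lay within the sham range of miR-30b-5p, and the fall was 0.63 ± 0.21 (adjusted p = 0.0442).

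miR-30c-5p, counted from both hairpin pairs, showed the same split among the MI libraries. It was at 25280, 16846 and 18343 CPM in sham and at 7581, 17796 and 9058 CPM in MI. Replicate 2 lay within the sham range and replicates 1 and 3 well below it, and the fall was 0.81 ± 0.27 (adjusted p = 0.0483).

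The strands made only from chromosome 1 did not pass. miR-30a-5p, the most counted member at 21 days, was at 62383, 43194 and 49668 CPM in sham and at 25369, 47257 and 55840 CPM in MI. Only MI replicate 1 lay below the sham range, and the log2 fold change was -0.27 ± 0.25 (adjusted p = 0.429). miR-30a-3p was at 1040, 1012 and 1031 CPM in sham and at 633, 869 and 947 CPM in MI, at -0.33 ± 0.18 (adjusted p = 0.183). For this strand the groups did not overlap although the test did not pass. miR-30c-2-3p was at 129, 119 and 121 CPM in sham and at 80.7, 130 and 84.5 CPM in MI, at -0.33 ± 0.19 (adjusted p = 0.231), with MI replicate 2 as high as sham. By CPM range alone, 6 of 10 members lay below sham without overlap, as did 18.7% of all tested miRNAs.

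**Figure D1:**
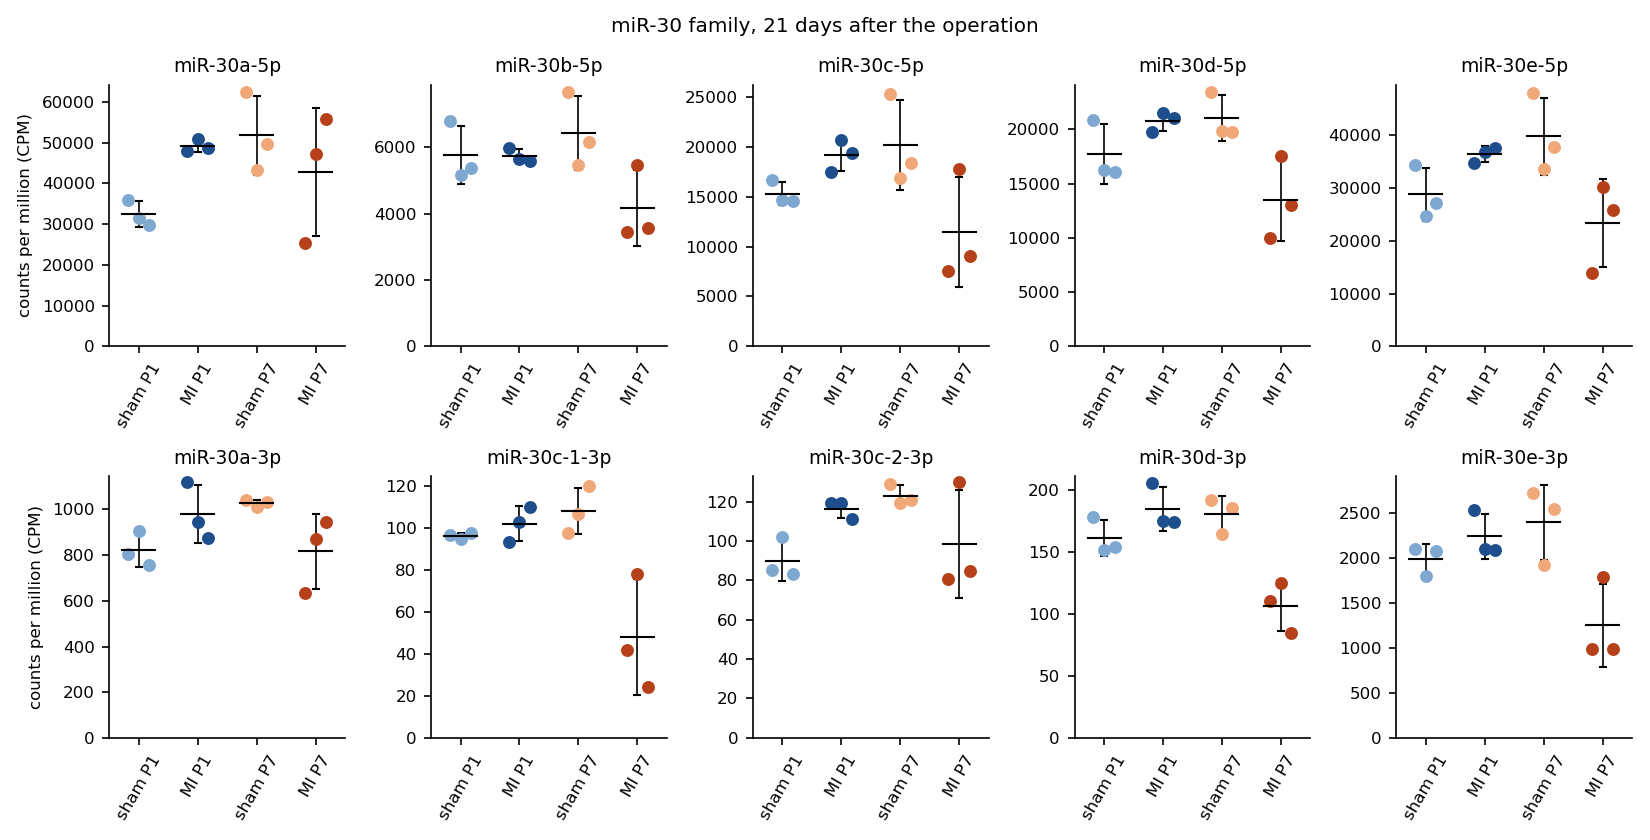
CPM (linear axis from 0) of each member in the 12 libraries of the 21-day follow-up, by group. Points are libraries, horizontal lines group means and bars 1 SD (n = 3). The MI P7 libraries of miR-30c-1-3p (24.3 to 78.4 CPM) lie below all sham P7 libraries (98.0 to 120 CPM), whereas those of miR-30a-5p overlap them.

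Ratios of related strands within a library do not depend on the scaling of libraries, and they show the unequal change directly. miR-30c-1-3p over miR-30c-2-3p, the 3p strands that share the seed UGGGAGA, was 0.758, 0.902 and 0.986 in sham P7 and 0.522, 0.603 and 0.287 in MI P7. Each MI P7 library lay below all 9 libraries of the other groups, where the ratio was 0.758 to 1.17. miR-30a-5p over miR-30e-5p, the 5p strands that differ by a single base, was 1.30, 1.28 and 1.32 in sham P7 and 1.82, 1.57 and 2.17 in MI P7. Each MI P7 library lay above the other 9 libraries, at 1.05 to 1.38. These ratios were singled out after their values were seen and carry no test, since 3 libraries against 3 cannot give an exact permutation p under 0.1.

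**Figure D2:**
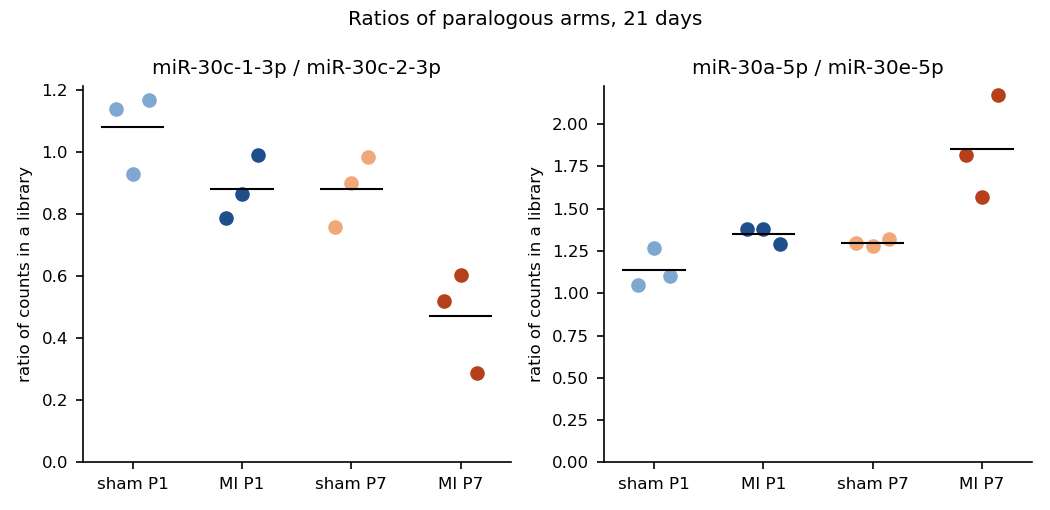
Ratio of counts within each 21-day library (linear axes from 0) for miR-30c-1-3p over miR-30c-2-3p and miR-30a-5p over miR-30e-5p. Points are libraries and lines are group means. The MI P7 libraries are lowest in the first ratio (0.287 to 0.603) and highest in the second (1.57 to 2.17).

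Some cell type markers differed between MI P7 and sham P7 at 21 days, and others did not. The cardiac muscle list (5 of 5 found) summed to 55970 to 92571 CPM in MI P7 and 133851 to 157386 CPM in sham P7. Of its members 1 of 5 was lower, miR-133a-3p at -1.01, and the list median was -0.32. The fibroblast-associated list (miR-199a-3p, miR-199a-5p and miR-214-3p) had 3 of 3 members higher, and its sum was 10615 to 22958 CPM against 5098 to 6120 CPM. The sum was 10615 CPM in MI replicate 2, the library nearest to sham for most members of the miR-30 family, and 20214 and 22958 CPM in replicates 1 and 3. The endothelial list, miR-126a-3p and miR-126a-5p, summed to 31860 to 50266 CPM against 51937 to 58307 CPM, with 1 of 2 lower. The erythroid list summed to 6629 to 17891 CPM against 7038 to 8226 CPM. The leukocyte list summed to 2653 to 3578 CPM against 3062 to 3378 CPM, with 1 of 4 higher and 1 lower. The mural list summed to 46018 to 112213 CPM against 66631 to 69687 CPM with 0 of 2 past. The epithelial list summed to 7.67 to 9.41 CPM against 4.68 to 5.28 CPM, without overlap, and 2 of 3 were higher, miR-200a-3p at 1.91 ± 0.31 (adjusted p = 0.00312) and miR-200b-3p at 1.57 ± 0.36 (adjusted p = 0.0122). In these libraries the skeletal muscle marker miR-206-3p at 0 to 0.147 CPM and the liver marker miR-122-5p at 0 to 0.139 CPM. The part of these markers in the miR-30 values was not tested.

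The calls at 21 days depend on the libraries and on the scaling. Without MI P7 replicate 2 there were 8 calls, without sham P1 replicate 1 there were 5, and without any one of the other 10 libraries there were 1 to 4, with 1 left without sham P7 replicate 1 and 1 without MI P7 replicate 1. The share of all tested miRNAs called moved too, from 22.1% with all libraries to 31% without MI P7 replicate 2, 21.1% without sham P1 replicate 1, and 9.76% to 25.2% without the others. With total count scaling, which put the median of all tested miRNAs at 0.38, 0 members passed, beside 2.68% of all tested miRNAs lower, miR-30a-5p was at 0.05 and the members ranged from -0.82 to 0.05. All 10 members lay below the median of all tested miRNAs under TMM, DESeq2 size factors and total counts. A change of scaling moves all miRNAs by about the same amount, so this place could hardly differ between scalings. With the sham P7 and MI P7 libraries fitted alone 0 members passed, beside 0.714% of all tested miRNAs lower. miR-30d-3p passed in 11 of 12 fits that left out a library, and miR-30c-1-3p and miR-30e-3p in 10 of 12 each. The called 5p strands passed in fewer of the 12 fits, miR-30e-5p in 4, miR-30d-5p in 2, and miR-30b-5p and miR-30c-5p in 1 each. The libraries ran on lanes 3 and 5, and mean log2 differences on lane 3 (2 against 2) were -1.82 for miR-30c-1-3p, -0.85 for miR-30d-3p and -1.17 for miR-30e-3p. On lane 5 (1 against 1) these were -0.32, -0.62 and -0.61. Of the P1 libraries, lane 3 held 3 sham and 1 MI, and lane 5 held 0 sham and 2 MI. Lane and MI thus cannot be fully told apart at P1.

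After MI at P1, 0 of the 10 members passed at 21 days, with 0.502% of all tested miRNAs past, and 1 had an unadjusted p under 0.05. miR-30a-5p was at 36021, 31452 and 29787 CPM in sham P1 and at 47960, 50919 and 48559 CPM in MI P1. All MI libraries lay above all sham libraries, at a log2 fold change of 0.60 ± 0.25 (edgeR, adjusted p = 0.648). miR-30c-1-3p was at 96.6, 94.8 and 97.6 CPM in sham P1 and at 93.6, 103 and 110 CPM in MI P1, which overlap, at 0.08 ± 0.30. The log2 fold changes of the members ranged from -0.01 to 0.60, with a median of 0.24 beside -0.01 over all tested miRNAs.

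The direct test of the MI effect at P7 against that at P1 called 2 of 10 members, both lower, where 2.01% of all tested miRNAs were lower. miR-30d-3p, at 178, 151 and 154 CPM in sham P1 and 205, 175 and 174 CPM in MI P1 beside its P7 values above, differed by -0.96 ± 0.25 (adjusted p = 0.0320). miR-30e-3p, at 2096, 1799 and 2082 CPM in sham P1 and 2531, 2097 and 2089 CPM in MI P1, differed by -1.10 ± 0.33 (adjusted p = 0.0469). For both strands the sham P1 and MI P1 ranges overlapped, and all MI P7 libraries lay below all sham P7 libraries. All 10 differences were negative, from -1.25 (miR-30c-1-3p) to -0.59 (miR-30a-3p), with a median of -0.92 beside 0.04 over all tested miRNAs. Among them 9 had an unadjusted p under 0.05, but members moved together across libraries, so these are not separate pieces of evidence. Leaving out 1 library gave 0 to 8 calls, from 8 without MI P7 replicate 2 to 0 without any 1 of 8 others, among them every MI P1 library. Over all tested miRNAs these fits called 2.58% to 19.1%. With sequencing lane, which partly follows MI at P1, as a covariate 0 of 10 members and 0 of 598 miRNAs passed. With total count scaling 0 of 10 members passed lower, as did 2 of 598 miRNAs. This scaling put the median of all tested miRNAs at 0.57 and the members at -0.71 to -0.06.

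**Figure D3:**
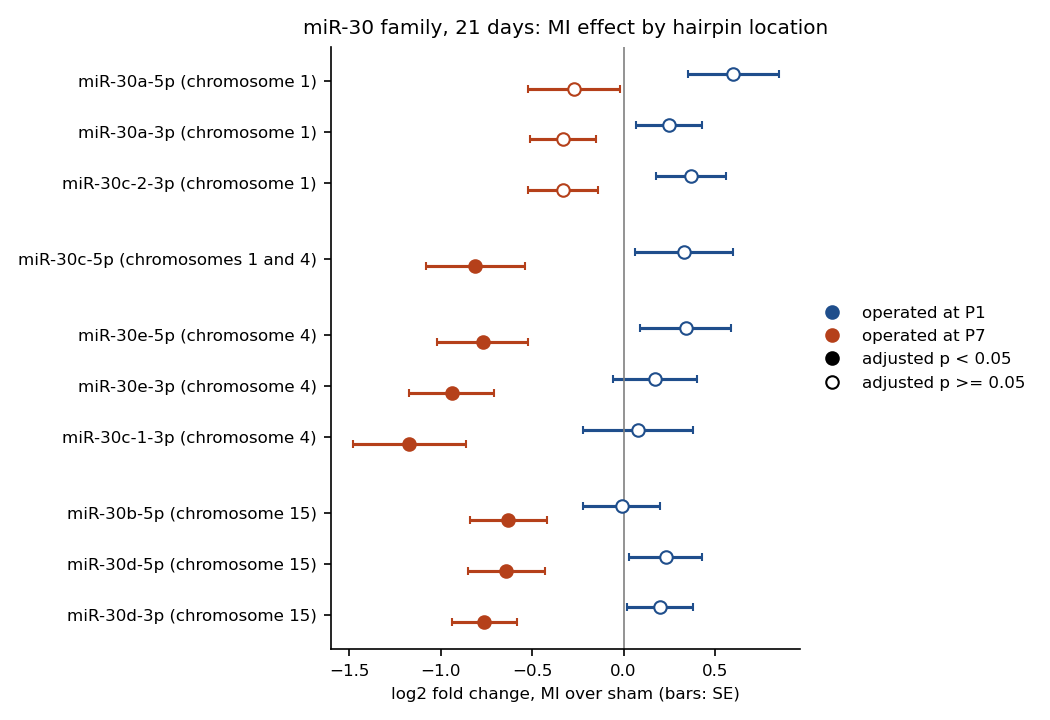
Log2 fold change of MI over sham at 21 days for each member, operated at P1 (blue) or P7 (red), ordered by the chromosomes of the hairpins. Points are edgeR estimates, bars are SE, and filled points have an adjusted p under 0.05. At P7 the strands made only from chromosome 1 lie at -0.33 to -0.27 and those made only from chromosome 4 at -1.17 to -0.77.

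Between the sham groups at 21 days, which differ in operation day and in age (22 against 28 days), 0 of 10 members passed, and 0% of all tested miRNAs did. All 10 log2 fold changes of sham P7 over sham P1 were above 0, from 0.16 to 0.67, with 2 at an unadjusted p under 0.05, while total count scaling placed them from -0.07 to 0.44. The largest was miR-30a-5p, at 29787 to 36021 CPM in sham P1 and 43194 to 62383 CPM in sham P7, without overlap (0.67 ± 0.25, adjusted p = 0.245).

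At 3 days the family split into strands that moved with the sham P1 title codes in opposite directions. miR-30c-5p was at 7283 and 11840 CPM in the code 1078 libraries and at 955 and 2398 CPM in the code 1103 libraries. The MI P1 libraries, at 7291, 10760, 6710 and 6648 CPM, lay with code 1078. The sham P7 libraries (1992, 1027, 1259 and 2731 CPM) and MI P7 libraries (840, 1329, 1343 and 1318 CPM) lay with code 1103. Between the codes, 7 members (miR-30a-5p, miR-30b-5p, miR-30c-5p, miR-30e-5p, miR-30a-3p, miR-30d-3p and miR-30e-3p) were 2.70- to 12.1-fold lower in the code 1103 libraries. The 3p strands of the miR-30c hairpins went the other way. miR-30c-2-3p was at 374 and 381 CPM with code 1078 and at 774 and 685 CPM with code 1103, and miR-30c-1-3p at 234 and 189 CPM against 392 and 308 CPM. miR-30d-5p differed little between the codes, with 21728 and 31469 CPM against 29944 and 29382 CPM.

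Depth and base composition moved with this split. The code 1078 and MI P1 libraries held 5.61 to 13.0 M deposited counts and the code 1103 and P7 libraries 1.29 to 3.42 M. Over the 389 of 446 tested miRNAs with a RefSeq sequence, the log2 difference of code 1103 minus code 1078 had a Pearson r of 0.74 with the percentage of G and C in the mature strand, given as a description over miRNAs that share the same 4 libraries. Among the members, miR-30e-5p with 40.9% G and C was at -2.43 and miR-30c-1-3p with 54.5% at 0.72. miR-30a-3p and miR-30c-2-3p both have 50.0% G and C and lay at -2.10 and 0.95. miR-30c-5p with 43.5% lay at -2.62. The part of depth and base composition in the 3-day values was not tested.

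**Figure D4:**
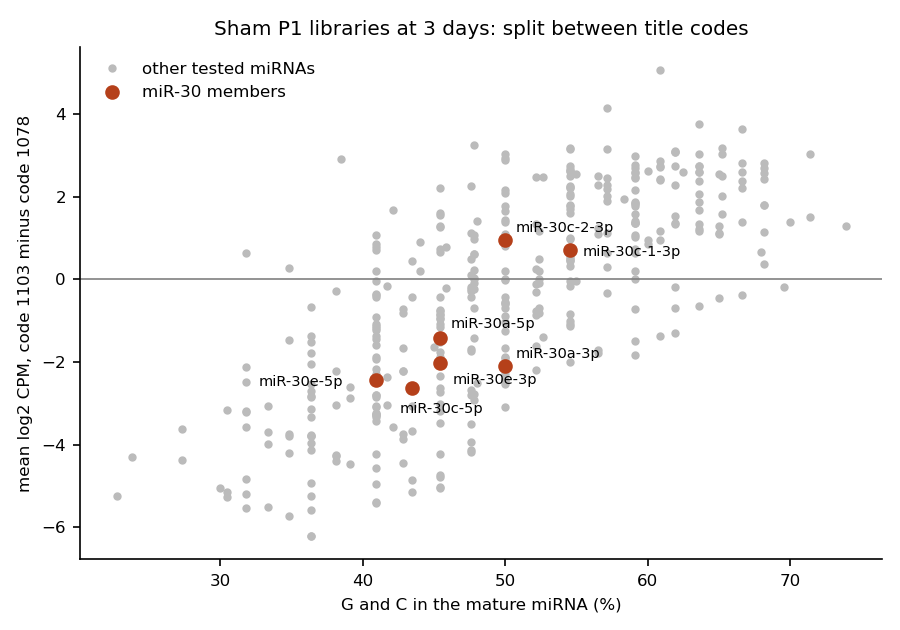
Difference in mean log2 CPM between the sham P1 libraries of title code 1103 and those of code 1078 at 3 days, against the percentage of G and C in the mature strand, for the 389 tested miRNAs with a RefSeq sequence. Members of the miR-30 family are in red, from -2.62 (miR-30c-5p) to 0.95 (miR-30c-2-3p). Each point is 1 miRNA, and lower values at low G and C content are seen across miRNAs.

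MI P7 and sham P7 at 3 days do not hold the split sham P1 libraries, but they share no title code. All sham P7 libraries carry 1075 and the MI P7 libraries 1077, 1088 and 1090, so code and group cannot be told apart. A limma-voom fit that let libraries of the same code vary together called 0 of 446 miRNAs. The edgeR fit took its spread from all 4 groups, sham P1 included. Fitted to the P7 groups alone, edgeR called 19.6% of 332 tested miRNAs and 0 members of the family. In the fit of all 4 groups 0 of the 10 members passed, with 5.61% of all tested miRNAs past, and 2 had an unadjusted p under 0.05. These were the miR-30c 3p strands. miR-30c-1-3p was at 358, 305, 263 and 288 CPM in sham P7 and at 216, 172, 218 and 147 CPM in MI P7. All MI libraries lay below all sham libraries, at -0.69 ± 0.30 (edgeR, adjusted p = 0.199). miR-30c-2-3p was at 796, 950, 793 and 839 CPM in sham P7 and at 559, 388, 682 and 466 CPM in MI P7, again without overlap, at -0.69 ± 0.31 (edgeR, adjusted p = 0.219). These were the 2 members whose CPM ranges lay lower without overlap, beside 6.05% of all tested miRNAs. The DESeq2 Wald test called 3 members lower, with 5.16% of all tested miRNAs lower: miR-30d-5p at -0.67 (adjusted p = 0.00601), miR-30c-1-3p at -0.84 (adjusted p = 0.00759) and miR-30c-2-3p at -0.83 (adjusted p = 0.0135). miR-30d-5p was at 36420, 35486, 29574 and 30371 CPM in sham P7 and at 31401, 17978, 21636 and 21927 CPM in MI P7, where replicate 1 alone reached the sham range. With total count scaling, which put the median of all tested miRNAs at 0.47, the members ranged from -0.22 to 0.74. Against sham P7 the cardiac muscle list summed to 153150 to 169681 CPM in MI P7 and 210790 to 324311 CPM in sham P7, with 0 of 5 past, and the fibroblast-associated list to 4427 to 6147 CPM and 2117 to 3656 CPM, with 0 of 3 past. The skeletal muscle marker miR-206-3p was at 16.2 to 41.0 CPM in MI P7 and 0.848 to 3.51 CPM in sham P7, and rose by 3.66 ± 0.69 (adjusted p = 0.0047). No member of the other 6 cell type lists passed. The part of these markers in the miR-30 values was not tested.

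MI P1 against sham P1 at 3 days called 2 of 10 members, the miR-30c 3p strands, both lower, where 17% of all tested miRNAs passed lower. miR-30c-1-3p was at 111, 99.1, 140 and 84.7 CPM in MI P1, below all 4 sham P1 libraries of either code, and fell by 1.37 ± 0.31 (adjusted p = 0.0230). miR-30c-2-3p was at 261, 175, 258 and 237 CPM in MI P1, also below all 4, and fell by 1.25 ± 0.31 (adjusted p = 0.0230). The other 8 members did not pass and lay between -0.40 and 0.86. Libraries share title codes, also within MI P1, where 3 libraries carry code 1086. When limma-voom was given the title code as a random block, 0 members passed, as did 0 of 446 miRNAs, with miR-30c-1-3p at -1.31 and miR-30c-2-3p at -1.14 (adjusted p = 0.393 for both).

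Both calls and the direction of other members depend on which sham libraries are kept. With code 1078 as the only sham P1 libraries 0 members passed, as did 0% of all tested miRNAs, with miR-30c-1-3p at -1.04 (adjusted p = 0.226) and miR-30c-2-3p at -0.77 (adjusted p = 0.416). With code 1103 as the only sham P1 libraries 10 of 10 members passed, 7 higher and 3 lower, beside 75.8% of all tested miRNAs. miR-30c-5p was then at 2.03 (adjusted p = 4.2e-04), against -0.33 with code 1078 alone (adjusted p = 0.712). The same count of 0 calls came from fits that left out replicate 3 or 4 of sham P1, or replicate 1, 2 or 4 of MI P1, in which 0% to 0.217% of all tested miRNAs passed. In those fits miR-30c-1-3p lay between -1.39 and -1.13 and miR-30c-2-3p between -1.34 and -0.92. The cardiac muscle list summed to 88820 to 157867 CPM in MI P1 and 157079 to 254128 CPM in sham P1, with 1 of 5 lower. That was miR-133a-3p at -1.48, while the others lay at -0.09 to 0.67 and the list median was 0.11. The sham P1 sums were 161426 and 157079 CPM with code 1078 and 227245 and 254128 CPM with code 1103. The leukocyte list summed to 2387 to 4435 CPM in MI P1 and 1618 to 2166 CPM in sham P1, with 1 of 4 higher and 1 lower. The epithelial list summed to 31.5 to 50.1 CPM in MI P1 and 79.1 to 190 CPM in sham P1, without overlap, and miR-200c-3p was lower (-1.93 ± 0.37, adjusted p = 0.0230). The skeletal muscle marker miR-206-3p was at 29.3 to 153 CPM in MI P1 and 5.38 to 30.2 CPM in sham P1, and was higher (2.21 ± 0.56, adjusted p = 0.0230). No member of the other 5 cell type lists passed, and the part of these markers was not tested.

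**Figure D5:**
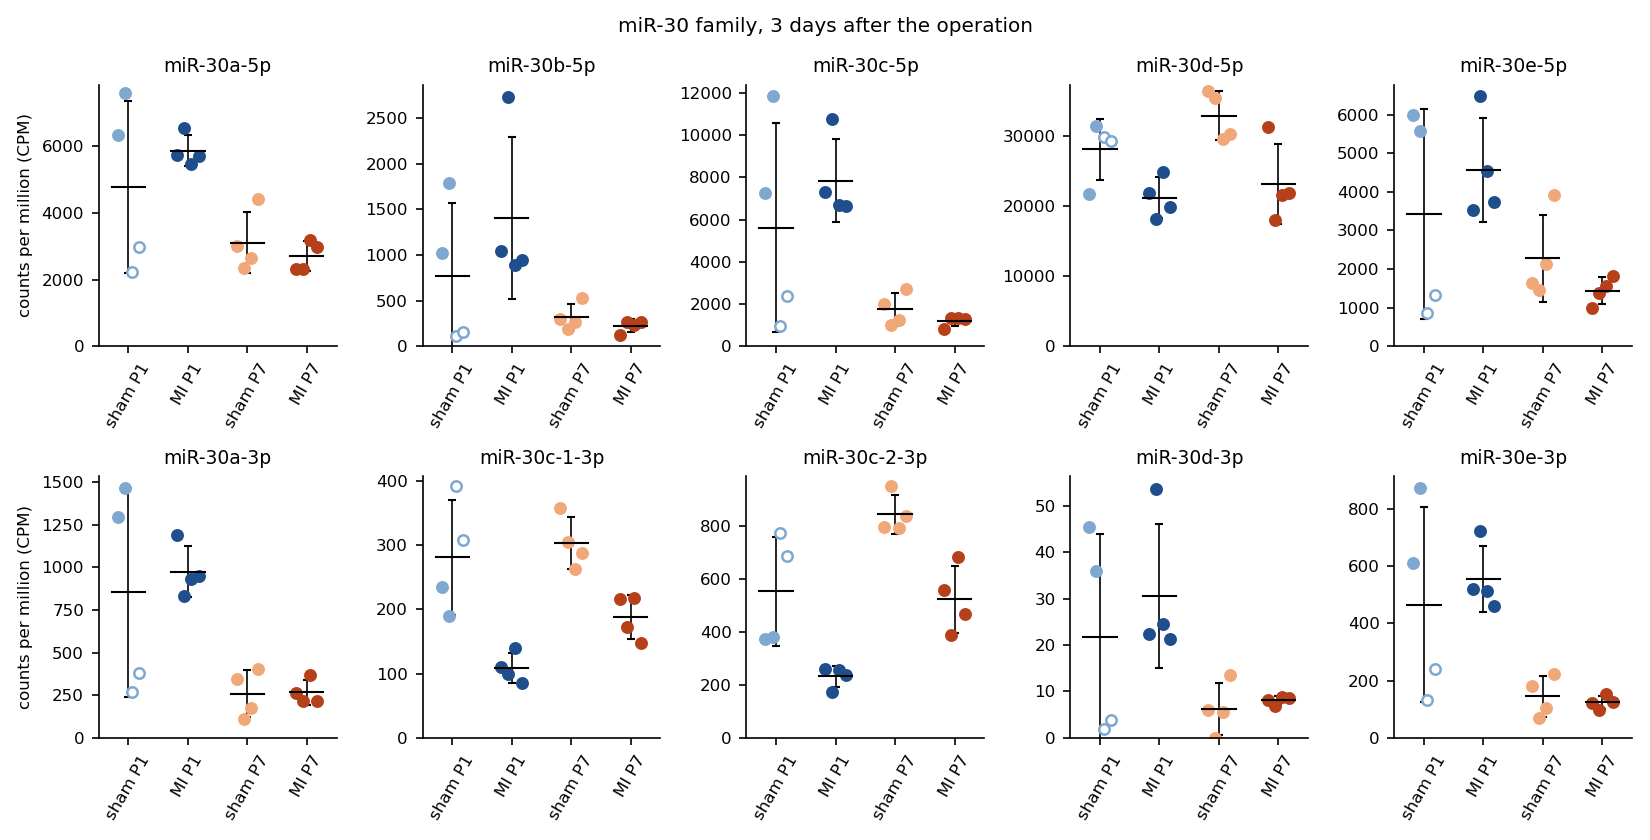
CPM (linear axis from 0) of each member in the 16 libraries of the 3-day follow-up, by group. Points are libraries, open circles the sham P1 libraries of title code 1103, horizontal lines group means and bars 1 SD (n = 4). For miR-30c-5p the open circles (955 and 2398 CPM) lie with the P7 groups, and the other sham P1 libraries (7283 and 11840 CPM) with MI P1.

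The MI effect at P7 against that at P1 at 3 days called 0 of 10 members and 0% of all tested miRNAs in edgeR, and 0 members had an unadjusted p under 0.05. The DESeq2 Wald test called 0 members too, with 1.35% of all tested miRNAs past. With code 1103 as the only sham P1 libraries 9 members passed, 2 higher and 7 lower, beside 65.6% of all tested miRNAs.

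Sham P7 against sham P1 at 3 days (ages 10 and 4 days) called 3 of 10 members, all lower, where 18.2% of all tested miRNAs were lower. miR-30a-3p was at 1293 and 1466 CPM with code 1078, 271 and 380 CPM with code 1103, and 347, 111, 177 and 405 CPM in sham P7, for a fall of 1.71 ± 0.52 (adjusted p = 0.0347). miR-30e-3p was at 610 and 874 CPM with code 1078, 133 and 242 CPM with code 1103, and 68.0 to 224 CPM in the 4 sham P7 libraries, for a fall of 1.68 ± 0.50 (adjusted p = 0.0332). The sham P7 libraries of both lay within or near the code 1103 range and far below code 1078. miR-30c-5p, with its values above, fell by 1.68 ± 0.58 (adjusted p = 0.0466). With code 1078 alone 8 members passed, 1 higher and 7 lower, beside 72.9% of all tested miRNAs, and with code 1103 alone 0 passed, beside 15.9%. In that second fit miR-30c-5p was at 0.05 (adjusted p = 0.952). Leaving out single libraries gave 5 calls without replicate 3 of sham P1 and 1 call without replicate 4 of either MI group. There were 0 calls without replicate 1 or 2 of sham P1, without replicate 2 or 3 of MI P1, without replicate 1, 2 or 3 of sham P7, and without replicate 2 or 3 of MI P7. Over all tested miRNAs the fits without 1 library called 3.66% to 40.2%. With title code as a random block 0 of 10 members and 0 of 446 miRNAs passed. Of the cell type lists, miR-206-3p was lower (-2.91 ± 0.68, adjusted p = 0.0111), as were 1 of 2 mural and 1 of 4 leukocyte miRNAs, and 1 of 4 leukocyte miRNAs was higher. Their part in the values was not tested.

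The balance of the arms was tested for the hairpins with both arms among the members that no other hairpin shares, 30a, 30d and 30e, as log2 of 5p over 3p counts. At 3 days 0 of 9 exact permutation tests passed (two-sided, 4 against 4, adjusted over 9, smallest possible p 0.0286, at which a single test adjusts to 0.257 and cannot pass), and at 21 days 0 of 9 (3 against 3, smallest possible p 0.1, which cannot pass). The 5p strand of 30a was 4.88 to 8.18 times its 3p strand in sham P1 and 8.62 to 21.0 times in sham P7 at 3 days, without overlap (log2 difference 1.05, exact permutation p = 0.0286, adjusted p = 0.257). At 21 days the 5p over 3p ratio of 30d was 107 to 122 in sham P7 and 91.0 to 154 in MI P7, and that of 30e was 14.9 to 17.6 and 14.2 to 26.1. The MI P7 ranges enclosed the sham ranges in both, so neither ratio separated the groups.

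Across libraries the members moved in groups, given as correlations of log2 CPM that share library, depth and group. Over the 16 libraries at 3 days, miR-30a-5p had an r of 0.97 with miR-30c-5p and 0.95 with miR-30e-5p, but -0.36 with miR-30d-5p, -0.60 with miR-30c-1-3p and -0.72 with miR-30c-2-3p. At 3 days miR-30c-5p also went apart from the 3p strands of its hairpins, at -0.60 with miR-30c-1-3p and -0.77 with miR-30c-2-3p. Over the 12 libraries at 21 days it moved with them, at 0.83 and 0.78. Among other tested miRNAs, the nearest to the mean of the 5p strands at 3 days were miR-26b-5p (r = 0.98), let-7g-5p (0.97), miR-208b-3p (0.97), miR-143-3p (0.96) and miR-185-5p (0.96), with a median of 0.15 over 436 miRNAs. Nearest to the 3p mean were miR-17-5p (0.94), miR-125b-2-3p (0.93) and miR-28a-5p (0.90). Both 3-day means mix strands that moved apart. Among the 5p members, miR-30d-5p had an r of -0.45 to -0.36 with the others. The miR-30c 3p strands had an r of -0.78 to -0.54 with the other 3p members. Over the 12 libraries at 21 days the nearest to the 5p mean were miR-9-3p (0.91), miR-133a-3p (0.90), miR-378c (0.88), miR-9-5p (0.88) and miR-3098-5p (0.87), and to the 3p mean miR-378a-3p (0.98), miR-486a-3p (0.95) and miR-133a-5p (0.94). The median over 588 miRNAs was -0.03 and 0.00.

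Other miRNAs described as lowering matrix genes were read beside the family as a list of 8 (miR-133a-3p, miR-133b-3p, miR-29a-3p, miR-29b-3p, miR-29c-3p, miR-24-3p, miR-26a-5p and miR-101a-3p). After MI at P7 at 21 days 2 of 8 were lower and 0 higher, where 8.86% of all tested miRNAs passed lower and 13.2% higher. The list median was -0.11, and the lower ones were miR-133a-3p at -1.01 ± 0.21 (adjusted p = 0.00844) and miR-29c-3p at -0.87 ± 0.22 (adjusted p = 0.0154). miR-29b-3p was at 0.88 ± 0.30 (adjusted p = 0.0507). At 3 days 1 of 8 was lower after MI at P1, where 17% of all tested miRNAs were lower. After MI at P7 1 of 8 was higher, where 23 of 446 tested miRNAs passed higher.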

How the data were processed

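The values deposited are whole-number read counts, not normalized by the authors, listed by hairpin and mature strand. Bowtie2 2.2.2, edgeR and the build GRCm38 are named in the submitters' processing notes. Not given in the sources used here were their roles, the counting program and the handling of molecular identifiers. Per the labels' protocols, RNA was isolated with TRIzol and 100 ng entered each library.

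The highest count over hairpins was kept per mature name. Within each follow-up, edgeR 4.0.16 (R 4.3.3) was fitted to the 4 groups with TMM, a filterByExpr minimum count of 10 and a robust quasi-likelihood test, with Benjamini-Hochberg adjustment over all tested miRNAs. Arm ratios had 0.5 added to both counts. Alternatives used other scalings and filters, DESeq2 1.42.0, limma-voom (limma 3.58.1), hairpin sums, the compared groups alone, title code, lane or replicate number in the fit, and each library left out. Scripts were tested on simulated data. Replicates differed beyond sampling noise (chi-square over its degrees of freedom at least 40.6). Named miRNAs were all members, the 5 nearest to the 5p mean and 3 nearest to the 3p mean, strands sharing a hairpin or seed, and up to 3 of the matrix list. The members and lists were chosen with earlier results of these data known.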

Additional observations from a re-analysis of the deposited data

Results flagged for a closer look

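Within groups of 4 libraries at 3 days, 40 sets of values were searched for a library far from the others, and chance gives about 1 in 20. In MI P1, replicate 2 was far above the other 3 for miR-30b-5p (2729 CPM, nearest 1047), miR-30c-5p (10760 CPM, nearest 7291) and miR-30d-3p (53.7 CPM, nearest 24.6). In MI P7, replicate 1 was far below the others for miR-30c-5p (840 CPM, nearest 1318). These 2 libraries held the most (13.0 M, M being 1e6) and the fewest (1.29 M) deposited counts of the 3-day follow-up, and the part of depth was not tested.

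At 21 days the MI effect at P7 differed from that at P1 by -0.96 for miR-30d-3p (edgeR, adjusted p = 0.0320) and by -1.10 for miR-30e-3p (edgeR, adjusted p = 0.0469). Over the fits that left out a library, these differences ranged from -1.08 to -0.78 and from -1.44 to -0.93, with adjusted p of 0.0102 to 0.112 and 0.00162 to 0.120.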

How the results depend on the processing

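Values here are counts of members called. For MI P1 against sham P1 at 3 days (2 as reported), total count scaling gave 1, no filter 0, the compared groups alone 0, title code as a random block 0, without code 1103 0 and without code 1078 10, and leaving out 1 library 0 to 2. For MI P7 against sham P7 at 3 days (0), the DESeq2 Wald test gave 3. For the difference of MI effects at 3 days (0), leaving out code 1078 gave 9. For sham P7 against sham P1 at 3 days (3), the 10 CPM filter, limma-voom, the compared groups alone, title code as a random block and leaving out code 1078 gave 0, leaving out code 1103 gave 8, and leaving out 1 library 0 to 5. Without code 1078, miR-30c-5p in this comparison changed sign to 0.05. At 21 days, the compared groups alone gave 1 for MI P1 against sham P1 (0) and 1 for sham P7 against sham P1 (0). For MI P7 against sham P7 (7), total count scaling and the compared groups alone gave 0, and leaving out 1 library 1 to 8. For the difference of MI effects (2), DESeq2 size factors and the 10 CPM filter gave 1, total count scaling 0, no filter 4, the DESeq2 Wald test 6, lane as a covariate 0, and leaving out 1 library 0 to 8. Apart from the settings themselves, the causes were not tested.

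The replicate numbers in the 21-day titles were also fitted as a replicate block, with 3 calls for MI P7 against sham P7 and 0 for the difference of MI effects. Samples that share a number did not deviate together (correlations from -0.206 to 0.328), so the numbers were not read as pairing. Low counts limit miR-30d-3p at 3 days, listed at 0 to 53.7 CPM.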

Other observations

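Strands outside the 10 members that share a hairpin or a seed with them were also counted. miR-30b-3p, from the miR-30b hairpin on chromosome 15, was at 13.5, 24.3 and 22.2 CPM in sham P7 and at 9.30, 18.5 and 20.6 CPM in MI P7 at 21 days. The groups overlapped, at -0.31 ± 0.29 (edgeR, adjusted p = 0.441), while miR-30b-5p from the same hairpin fell. In the 3-day libraries miR-30b-3p was at 126, 125, 62.7 and 98.9 CPM in sham P1, where the 2 title codes were closer to each other than for miR-30b-5p (1027 and 1790 CPM against 113 and 159 CPM). miR-384-5p, which carries the same seed on chromosome X, had 0 to 7 counts in any library and was not tested.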
